A study of Drosophila melanogaster with 6 samples.

Results

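Transposable element insertions, the individual copies of mobile DNA annotated along the fly chromosomes, were counted as separate features in single-cell RNA sequencing of *Drosophila* brains. Of 5416 insertion rows in the count tables, 1122 held at least 50 unique molecular identifiers (UMIs, each tagging 1 captured RNA molecule) over the 6 libraries in barcodes with at least 200 genes, and these 1122 are described here. They held 749746 of the 773363 insertion UMIs (96.9%) and belonged to 108 of 124 annotated families. Because UMI totals chose the insertions, their abundance is given as a description. Just inside the limit lay 297{}2766 and INE-1{}3061 with 50 UMIs each, and just outside it lay INE-1{}1919 and 297{}1015 with 49 each.

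The study compared brains of control flies of genotype w1118 with brains of flies carrying a deletion of Appl, the fly ortholog of the amyloid precursor protein, of genotype Appl[d] w[*] and here called Appl-. Each library pooled brains of 20 male and 20 female flies aged 10 days, with 3 libraries per genotype, and the labels do not say whether replicates were separate cultures. Both genotypes carry a mutation of *white*. No crossing to a common background was stated in the sources used here, so loss of Appl and a difference in the insertions that each stock carries cannot be told apart. RNA was read from the 3′ end.

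Transposable elements are mobile DNA that makes up part of the genomes of flies and of most other eukaryotes. LTR retrotransposons, such as roo, opus, mdg1 and copia, are copied through RNA like retroviruses, non-LTR retrotransposons, such as jockey, Doc and HeT-A, are copied from RNA at the site of insertion, and DNA transposons, such as 1360, pogo and hobo (written H), are cut and moved as DNA. INE-1 is an old, short and very numerous element. HeT-A and TART are non-LTR elements that form the telomeres of fly chromosomes. In the germ line, PIWI proteins loaded with small RNAs silence transposons, and in somatic tissue including the brain Dcr-2 and AGO2 make and carry small interfering RNAs against them.

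The 6 libraries held 11282730 to 56384733 UMIs in 67362 barcodes, and 25189 cells were kept that had 200 genes or more and no more than 10% of UMIs from mitochondrial genes. Levels are given as CPM, the UMIs of a feature in each 1000000 UMIs of a library. Appl itself was at 2127 ± 127 CPM in controls and 229 ± 25.7 CPM in Appl- (SD, n = 3 each), or -3.21 ± 0.12 on the log2 scale (SE, edgeR adjusted p = 1.83e-05). The share of barcodes over the mitochondrial limit ran from 30.3% to 84.7% and was largest in control replicate 1. No 2 libraries shared more than 0.391% of the smaller library's cell barcodes.

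Insertion rows took 0.345%, 0.594% and 0.471% of UMIs in control replicates 1 to 3 and 0.512%, 0.487% and 0.484% in Appl-. The Appl- values lay inside the control range. The difference of 0.0244 percentage points gave p = 0.7 in an exact two-sided permutation test, where 3 libraries against 3 allow no p below 0.1. Without control replicate 1 the difference was -0.0382 points, so the sign of this small difference rested on 1 library.

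The insertions were unequal in abundance. Their median was 204 UMIs, and 139 held at least 1000. The 10 most abundant held 23.7% of the UMIs. By class, 415 LTR insertions carried 48.0% of UMIs, 269 non-LTR insertions 24.5%, DNA transposon insertions 16.8% and 229 INE-1 insertions 10.7%, with 4 insertions of unassigned class. By position in the BDGP6.54 annotation, 454 lay within a gene on its own strand, 251 within a gene on the opposite strand only, and 417 between genes. Chromosome arm 2R held 269 of them, 3L 223, the small chromosome 4 held 186, 2L 155, X 149 and 3R 140.

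Over all barcodes with at least 200 genes, the most abundant insertion was jockey{}1009, a 500-base copy of a non-LTR element with 45244 UMIs. It lies on chromosome 3L (15899285 to 15899784, plus strand, between genes). The others among the 10 were opus{}4946 with 18504 UMIs, invader2{}1169 with 18396, mdg1{}831 with 17286, Xanthias{}6297 with 16563, Doc2{}4272 with 14720, accord{}818 with 12780, rooA{}4276 with 12016, Tabor{}341 with 11850 and rooA{}1496 with 10098. All but jockey{}1009 and Doc2{}4272 belong to LTR families. Per kilobase of annotated length, jockey{}1009 had 90488 UMIs and the longer opus{}4946 had 5981. Reads from the 3′ end need not scale with length. All of these totals include barcodes over the mitochondrial limit. In kept cells jockey{}1009 had 10109 UMIs, fewer than invader2{}1169 with 11347.

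By family, INE-1 held the most UMIs, 80299 over 229 insertions. It was followed by roo with 62681 over 108, jockey with 53199 over 25, opus with 45442 over 21, 1360 with 39696 over 73 and rooA with 34786 over 8. Then came mdg1 with 26567 over 18, Doc with 25397 over 50, HB with 25121 over 23 and invader2 with 23060 over 7. These totals also include barcodes over the mitochondrial limit. In kept cells 1360, at a mean of 276 CPM in controls and 341 in Appl-, lay above jockey, at 219 and 115. A single insertion could carry a family: jockey{}1009 held most of jockey's UMIs, while the leading INE-1 copy, INE-1{}5914 in an intron of CaMKI, held 3850.

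The levels of several abundant insertions differed widely between libraries of the same genotype. For jockey{}1009, controls had 313, 143 and 30.8 CPM in replicates 1, 2 and 3, and Appl- had 142, 40.8 and 13.1. For mdg1{}831, an LTR copy inside hbs on the opposite strand, controls had 87.4, 122.6 and 18.04 and Appl- had 90.6, 35.1 and 6.72. For opus{}4946, inside the aquaporin gene Drip on the opposite strand, controls had 96.5, 127 and 34.0 and Appl- had 92.4, 31.1 and 11.4. In each of these insertions the library numbered 3 was the lowest of its genotype and the genotypes overlapped. Tabor{}341 had 59.1, 73.3 and 12.4 in controls and 54.5, 22.8 and 8.003 in Appl-. None of the 4 passed the test without pairing, with edgeR adjusted p between 0.514 and 0.700.

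The same insertions were higher in the barcodes left out for their mitochondrial share. Over all 139 insertions with at least 1000 UMIs, 50 (36.0%) had a higher CPM in barcodes over the limit than in kept cells in all 6 libraries, against 202 of 5353 nuclear genes that also held at least 1000 UMIs (3.77%). A lower CPM over the limit in all 6 libraries was found for 12 insertions (8.63%) and 3497 of these genes (65.3%), which were not matched to the insertions in abundance. The median ratio over the limit to kept was 1.22 for insertions and 0.787 for genes. The ratio lay between 2.29 and 3.25 for jockey{}1009, between 2.22 and 2.72 for mdg1{}831, between 2.22 and 2.99 for Doc{}1407 and between 1.61 and 2.84 for opus{}4946. The insertions BS{}933 and mdg1{}1678, also chosen after values were seen, had ratios of 2.36 to 6.92 and 2.47 to 9.34. Barcodes over the limit made up 84.7%, 46.3% and 37.5% of control replicates 1, 2 and 3 and 63.7%, 37.9% and 30.3% of Appl- replicates, and their part in the library differences was not tested.

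**Figure D1:**
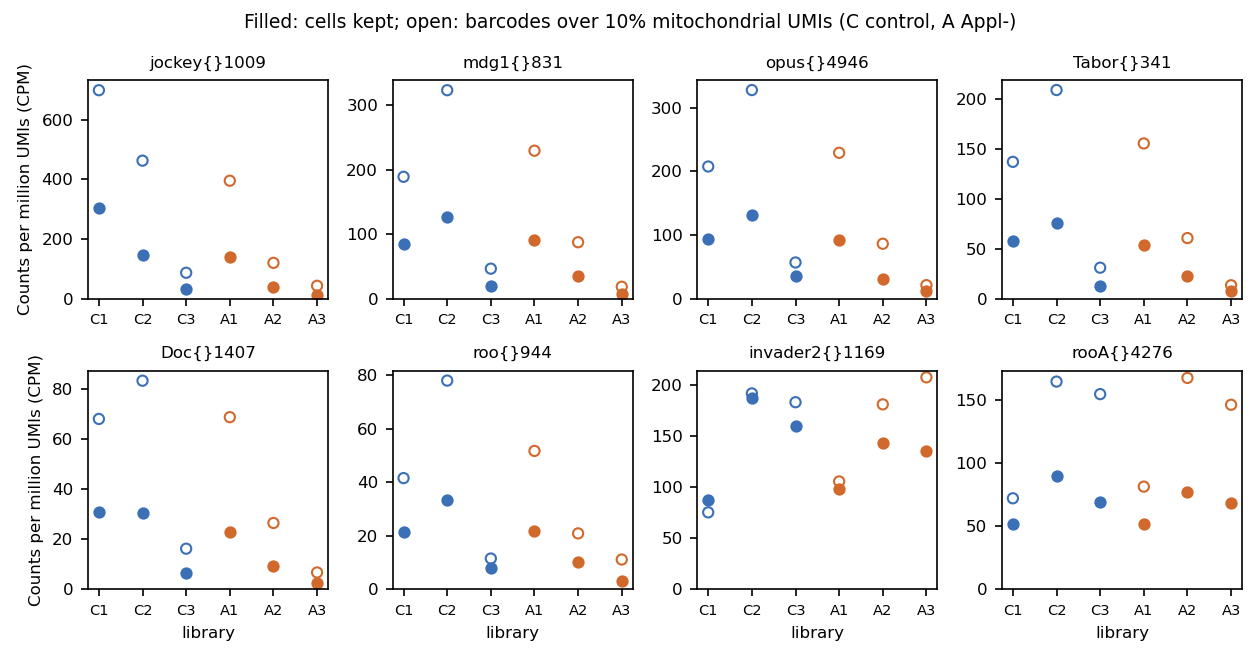
CPM of the library total (vertical axes, starting at 0) for 8 abundant insertions in the 3 control (C, blue) and 3 Appl- (A, orange) libraries, with filled points for kept cells and open points for barcodes over 10% mitochondrial UMIs. For jockey{}1009 every open point lies 2.29 to 3.25 times above its filled point, and libraries C3 and A3 are the lowest of their genotypes.

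With the replicate number as a block, jockey{}1009 passed the test (log2 fold change -1.41, edgeR adjusted p = 0.00688), and so did Xanthias{}6297 (0.83, adjusted p = 0.00407), an LTR copy between genes. Xanthias{}6297 had 50.8, 98.2 and 82.0 CPM in controls and 97.5, 157 and 151 in Appl-, with control replicate 2 just above Appl- replicate 1. Other abundant insertions were near equal between genotypes. The exonic foldback copy FB{}1604 in SPoCk, a calcium pump gene, was at 57.8 ± 6.04 in controls and 57.9 ± 0.979 in Appl- (SD, n = 3 each), and rooA{}4276 was at 68.8 ± 17.5 and 66.5 ± 13.9.

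To ask which insertions differed with genotype, UMIs were summed per library and tested across all 9383 features that passed edgeR's filter on low counts, of which 797 were among the 1122 insertions and 325 were not tested. A call needed an adjusted p under 0.05 and a log2 fold change of at least 0.32 in size. In Appl-, 75 insertions were higher and 69 lower, 144 of 797 (18.1%), against 7.46% of all features (3.76% higher and 3.7% lower) and 6.29% of genes. The median log2 fold change of the 797 insertions was -0.02 and that of all features was -0.00, while the median size of the change was 0.56 for insertions and 0.18 for all features. The control and Appl- libraries were fully apart for 265 of 797 insertions (33.2%), against 27.5% of all features.

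Many calls were of near presence or absence. Of the 797 tested, 90 reached the filter's level in 1 genotype only, and 70 of those were called. Such insertions had to differ to be tested, and among the 707 that reached it in both genotypes 74 (10.5%) were called, against 511 of 9086 features of any kind that did (5.62%). An 8-fold difference or more was fitted for 34 insertions called higher and 33 called lower, and these 67 made up a large part of the 185 features of any kind called at that size. Counts depended on single libraries: without Appl- replicates 1, 2 or 3, 43, 38 and 40 were higher and 39, 27 and 31 lower. Without control replicate 1 the counts were 83 and 133, without control replicate 2 they were 59 and 41, and 59 of the 144 calls held without each library in turn.

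The largest rise was in H{}84, a hobo DNA transposon copy (FBti0019603, chromosome X, 8293303 to 8296283, plus strand) in an intron of the acetylcholine receptor gene nAChRalpha3, opposite to the gene. It had 0 UMIs in all 3 controls and 84.8, 86.7 and 81.5 CPM in Appl-, at least 1181-fold higher against a floor of 3 UMIs over the control group (edgeR adjusted p = 1.64e-05). A UMI was found in 2777 of 13266 Appl- cells (20.9%) and in 0 of 11923 control cells, pooled over 3 libraries, which allows a share of cells with a UMI of up to 0.0252% by counting error alone and sets no limit on cells that carry the RNA. It was present in all 42 Appl- clusters of cells. The host gene nAChRalpha3 was at 301 ± 15.1 in controls and 247 ± 12.9 in Appl-, with adjusted p = 0.0904 by edgeR.

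A pair of insertions at 1 locus on chromosome 2R followed. The LTR copy invader4{}1669 (25258153 to 25258888, plus strand) had 0 UMIs in controls and 50.05, 38.9 and 51.2 CPM in Appl-, at least 625-fold higher. INE-1{}3470 (25255992 to 25256184, plus strand) had 3 UMIs, all in control replicate 2, and 44.5, 53.5 and 59.5 CPM in Appl-, or 723 times as much, with exact 95% counting limits of 247 and 3507. Both lie downstream of CG30428 on its strand, by 3618 and 1457 bases. CG30428 had 0 UMIs in controls and 131, 136 and 134 CPM in Appl-, so gene and insertions were read in the same 3 libraries.

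Other insertions were also nearly confined to Appl- among these 6 libraries. INE-1{}5919, a 182-base copy on chromosome 4 that lies 1386 bases downstream of CaMKI, had 0 control UMIs and 4.54, 4.79 and 4.91 CPM in Appl-, at least 65.8-fold higher. The LTR copy mdg3{}1683 was at 0, 0.24 and 0.08 in controls and 21.6, 21.7 and 29.2 in Appl- (log2 fold change 7.84 ± 0.47 SE). Rt1b{}1236, a non-LTR copy in an intron of gpp on its strand, had 0 control UMIs and 1.93, 1.71 and 1.81 CPM in Appl-, at least 25.0-fold higher. Without Appl- replicate 2 its edgeR adjusted p was 0.0530.

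jockey{}54, a 350-base copy on chromosome X, had 1 UMI in each control library and 13.4, 9.24 and 13.2 CPM in Appl-, or 158 times as much (95% limits 53.8 and 770). pogo{}916, a 183-base DNA transposon copy 37 bases downstream of CG32485 on its strand, was at 0.12, 0.16 and 0.23 in controls and 27.5, 22.2 and 27.8 in Appl- (log2 fold change 7.19 ± 0.23 SE, edgeR adjusted p = 1.1e-05). CG32485 itself was at 82.9 ± 8.78 in controls and 75.1 ± 4.48 in Appl- (adjusted p = 0.485), unlike CG30428 beside its insertions.

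Among more abundant insertions, accord{}818, the only copy of its LTR family among the 1122, lies inside CG17574 on the opposite strand. It was at 14.6, 19.3 and 16.0 CPM in controls and 143, 237 and 206 in Appl- (log2 fold change 3.55 ± 0.21 SE, edgeR adjusted p = 0.000127), found in 3.20% of control and 35.3% of Appl- cells. The LTR copy copia{}1391, chosen after values were seen, was at 0.50, 1.43 and 1.77 in controls and 76.2, 58.7 and 70.2 in Appl-. Doc2{}4272, a non-LTR copy in an intron of the kinase gene Stlk, was at 34.6, 66.1 and 62.0 in controls and 130, 160 and 173 in Appl- (log2 fold change 1.51 ± 0.24 SE). Its call was lost without Appl- replicate 2 or 3 (highest adjusted p = 0.0627 by edgeR). Doc{}1652 rose from 20.9 ± 8.42 to 73.8 ± 5.799 and lost its call without any 1 of the Appl- libraries (highest adjusted p = 0.0616).

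The largest fall was in Burdock{}1221, an LTR copy (chromosome 3R, 5446016 to 5452418, plus strand) in an intron of CG14669 on its strand. It was at 4.34, 7.38 and 7.40 CPM in controls with 0 UMIs in Appl-, at least 89.6-fold lower (edgeR adjusted p = 0.00209). opus{}865, an LTR copy (chromosome 2R, 21151168 to 21153747, plus strand) inside CG30389 on the opposite strand, was at 48.7, 117 and 134 in controls and 0.82, 0.29 and 0.32 in Appl- (log2 fold change -7.71 ± 0.57 SE). A UMI of opus{}865 was found in 18.5% of control cells and 0.136% of Appl- cells.

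springer{}1464, an LTR copy inside Sox100B on the opposite strand, was at 27.0, 6.67 and 7.33 in controls and had 3 UMIs in all in Appl-, or 212 times less (95% limits 72.4 and 1033). INE-1{}2454, in an intron of Nipped-A, was at 0.81, 2.22 and 1.54 in controls with 0 UMIs in Appl-, at least 21.1-fold lower. Its call was kept only without control replicate 1, and the highest adjusted p without a library was 0.0750 by edgeR. The non-LTR copies Ivk{}1098 in SPoCk and Juan{}1190 in CG32944 each had 1 Appl- UMI. In controls Ivk{}1098 was at 2.67, 6.83 and 6.32 and Juan{}1190 at 3.41, 4.84 and 6.09.

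17.6{}1213, an LTR copy in an intron of plh, was at 33.4, 19.2 and 13.6 in controls and 0.22, 0.15 and 0.11 in Appl- (log2 fold change -7.02 ± 0.50 SE). I{}1078, a copy of the I element, was at 10.1, 14.0 and 15.8 in controls and 0.07, 0.20 and 0.11 in Appl- (-6.52 ± 0.35 SE). Chosen after values were seen, HMS-Beagle{}333 fell from 51.3 ± 12.0 to 3.53 ± 2.09, diver2{}2295 from 50.9 ± 24.7 to 2.49 ± 0.682 and Stalker2{}1042 from 29.7 ± 4.89 to 2.66 ± 1.58 CPM (SD, n = 3 each).

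**Figure D2:**
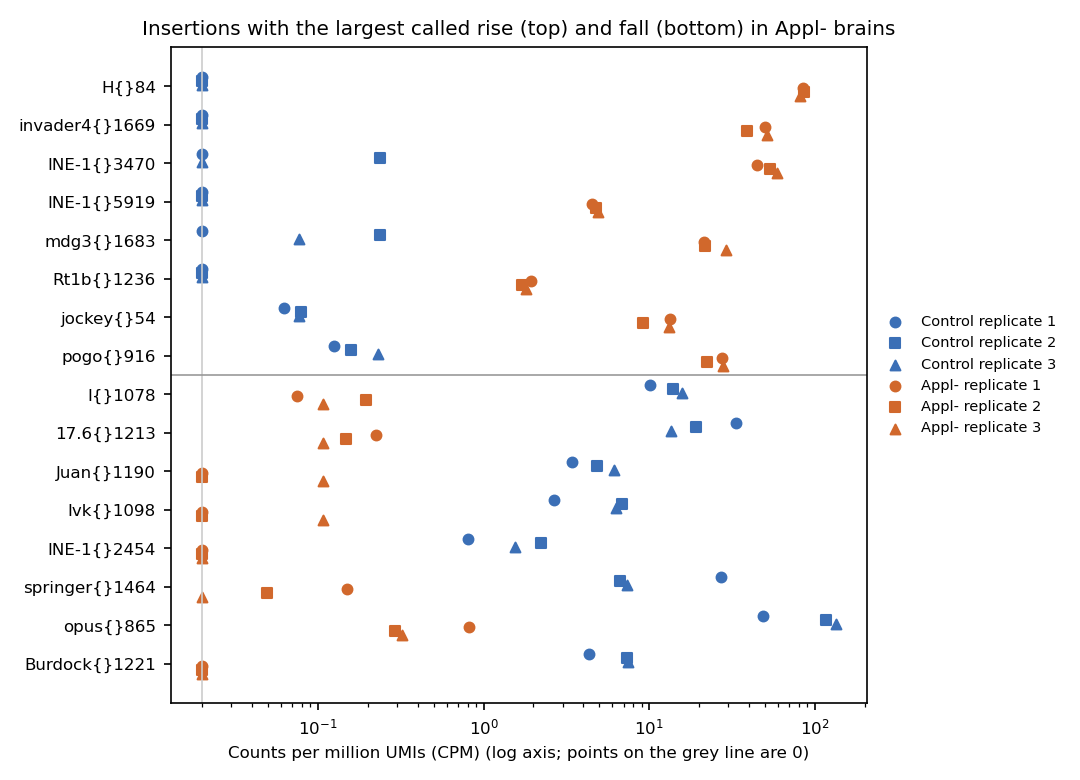
CPM on a log axis in each of 6 libraries (points) for the 8 insertions with the largest called rise, above the line, and the 8 with the largest called fall, below it. In every row the 3 control and 3 Appl- libraries are apart, which the choice of these insertions required. Points on the grey line had 0 UMIs, as for H{}84 in all controls and Burdock{}1221 in all Appl- libraries.

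By class, the share of tested insertions that were called was 22.6% for non-LTR (25 higher and 17 lower of 186), 21.6% for LTR (31 and 38 of 320), 17.0% for DNA transposons (14 and 11 of 147) and 5.63% for INE-1 (5 and 3 of 142). Of all features 7.46% were called, as given above. At the filter's level in both genotypes, 10.5% of insertions and 5.62% of features of any kind were called. By position, 23.5% of insertions between genes were called, 21.4% of those opposite to a gene and 11.5% of those on a gene's strand. By chromosome the share ran from 12.9% on chromosome 4 to 21.8% on X. These shares were not tested against each other. They include the 90 insertions that did not reach the filter's level in both genotypes, 70 of them called, which had to differ to be tested. How these insertions were spread over class, position and chromosome was not counted, so nothing is read from contrasts between the shares.

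Among called insertions inside a tested gene, most had a host gene that did not pass the test itself. Of 38 called insertions on a gene's own strand, 35 had a host gene that was tested, and 5 of these host entries were called (14.3%), against 6.29% of all genes. The median size of the log2 change was 2.59 for the 35 insertions and 0.16 for their host genes. SPoCk was at 304 ± 24.3 in controls and 358 ± 42.2 in Appl- around Ivk{}1098 (log2 fold change 0.23), and Nipped-A (-0.11) hosted 3 called insertions. The log2 fold change was 0.12 for CG14669 around Burdock{}1221 and -0.19 for gpp around Rt1b{}1236. Of 39 called insertions opposite to a gene, 33 had a tested host, and 6 of these host entries were called (18.2%), 4 of them lncRNA:flam and the others MRP around Doc{}350 (log2 fold change -0.53) and Cda5 around X{}278 (-0.83). Of 67 called insertions between genes, 5 lay within 5000 bases downstream of a tested gene on its strand, and 3 of those had a called gene, CG30428 for 2 of them and flip for INE-1{}3643 (log2 fold change 2.72 for flip and 3.61 for the insertion).

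The 5 called hosts on the insertion's own strand, named after their values were seen, changed in the direction of their insertions. The exonic 1360{}5004 rose by 3.16 on the log2 scale and its host CG14464 by 0.87, gypsy2{}4593 by 1.76 and Kif3C by 0.91, G3{}1 by 0.83 and CG13375 by 0.56, and jockey{}841 by 1.75 and mbl by 0.37. mdg1{}2138 fell by 2.68 and its host lncRNA:flam by 1.49. Only the call of CG14464 held without each library in turn. The highest adjusted p without a library was 0.125 for Kif3C, 0.134 for CG13375 and 0.171 for mbl by edgeR, and the calls of G3{}1 and jockey{}841 themselves were lost as well (0.151 and 0.143).

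**Figure D3:**
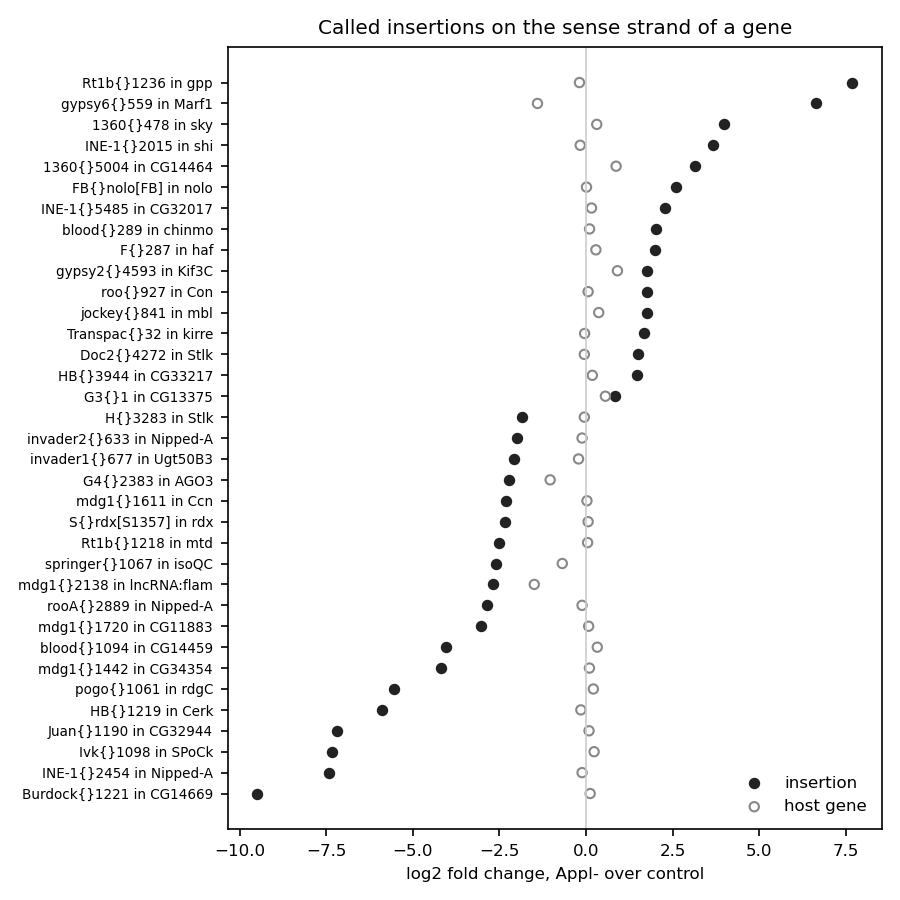
Log2 fold change, Appl- over control, for the 35 called insertions on the strand of a tested host gene (filled) and for that gene (open), ordered by the insertion. Insertions run from Burdock{}1221 (-9.50) to Rt1b{}1236 (7.69), while host genes lie between -1.49 (lncRNA:flam) and 0.91 (Kif3C).

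The flamenco RNA, lncRNA:flam, is the precursor of small RNAs that silence LTR elements in cells around the germ line. In these brains it was at 5.34, 8.02 and 8.48 CPM in controls and 3.64, 1.96 and 2.13 in Appl- (log2 fold change -1.49 ± 0.32 SE, edgeR adjusted p = 0.0349), and it missed the threshold with the replicate block (0.0600) and without any 1 of 4 libraries (highest 0.145). Within it, mdg1{}2138 on its strand was at 1.74, 4.76 and 4.16 in controls and 0.59, 0.59 and 0.43 in Appl-. gypsy6{}2633, on the opposite strand, was at 0.43, 2.46 and 1.62 in controls and 19.7, 27.0 and 20.1 in Appl- (3.92 ± 0.48). Of the other called copies opposite to lncRNA:flam, Stalker4{}2440 rose by 2.24 on the log2 scale, while blood{}2438 and F{}2119 fell by 2.67 and 3.06, so copies on that strand moved both ways. A non-LTR copy in an intron of the PIWI family gene AGO3, G4{}2383, was at 4.22, 8.49 and 7.48 in controls and 0.82, 1.37 and 2.24 in Appl- (-2.21 ± 0.42, adjusted p = 0.0246), and AGO3 at 1.32 ± 0.176 and 0.651 ± 0.106 (adjusted p = 0.142). The calls of mdg1{}2138 and G4{}2383 were each lost without 1 of 4 libraries, with highest adjusted p = 0.0924 and 0.125.

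To compare families, all annotated rows of each family were summed, and 105 families were tested with the genes. In Appl-, 13 families were higher and 9 lower, 22 of 105 (21.0%), against 6.31% of all features of that fit (3.23% higher and 3.07% lower). The median log2 fold change over families was 0.05. All 22 were also called with the replicate block, for which the share of all features called was not counted in this fit. They were called over neuron-like cells alone as well, where 6.54% of all features were called. Neuron-like cells were 24179 of the 25189 kept cells, so that fit reused most of the same data and is no separate support. Only 7 held without each library in turn: H, accord, Max, gypsy6, mdg3, Ivk and Burdock. Without Appl- replicates 1, 2 or 3, 6, 5 and 6 families were higher and 6, 2 and 4 lower, and without control replicate 1, 15 and 23.

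Among LTR families, mdg3 rose from 0.425 ± 0.258 to 25.3 ± 4.32 CPM (log2 fold change 5.91 ± 0.32 SE, edgeR adjusted p = 9.6e-05), accord from 16.7 ± 2.55 to 195 ± 47.2 (3.55) and Max from 9.99 ± 1.78 to 60.9 ± 5.00 (2.61). Tom1 rose from 0.398 ± 0.158 to 2.26 ± 0.366, gypsy6 by 1.75, invader4 by 1.31 and accord2 by 0.83 on the log2 scale. Among non-LTR families Doc2 rose from 66.4 ± 22.4 to 217 ± 28.4 (1.71), and among DNA transposons pogo rose from 6.60 ± 3.17 to 34.1 ± 2.64 (2.38), H from 71.0 ± 11.3 to 150 ± 4.49 (1.08) and Tc3 from 12.6 ± 2.17 to 20.0 ± 1.36 (0.67).

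Families that fell were of the LTR and non-LTR classes. The non-LTR families Ivk and Juan fell by 3.34 and 3.05 on the log2 scale, Ivk from 14.9 ± 5.27 to 1.47 ± 0.354 CPM. Of the LTR families, HMS-Beagle fell from 59.4 ± 14.3 to 8.13 ± 4.96 (-2.86), 17.6 from 30.5 ± 11.2 to 8.19 ± 2.40 (-1.89) and springer from 19.8 ± 9.48 to 5.37 ± 0.624 (-1.88, and -1.11 over neuron-like cells alone). Burdock fell by 2.11, invader1 by 1.42, blood by 1.17 and 297 by 0.88. The LTR family copia was at 53.4 ± 23.0 in controls and 144 ± 28.0 in Appl- (1.43, adjusted p = 0.0507 by edgeR), and passed over neuron-like cells alone (1.37, adjusted p = 0.0377).

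**Figure D4:**
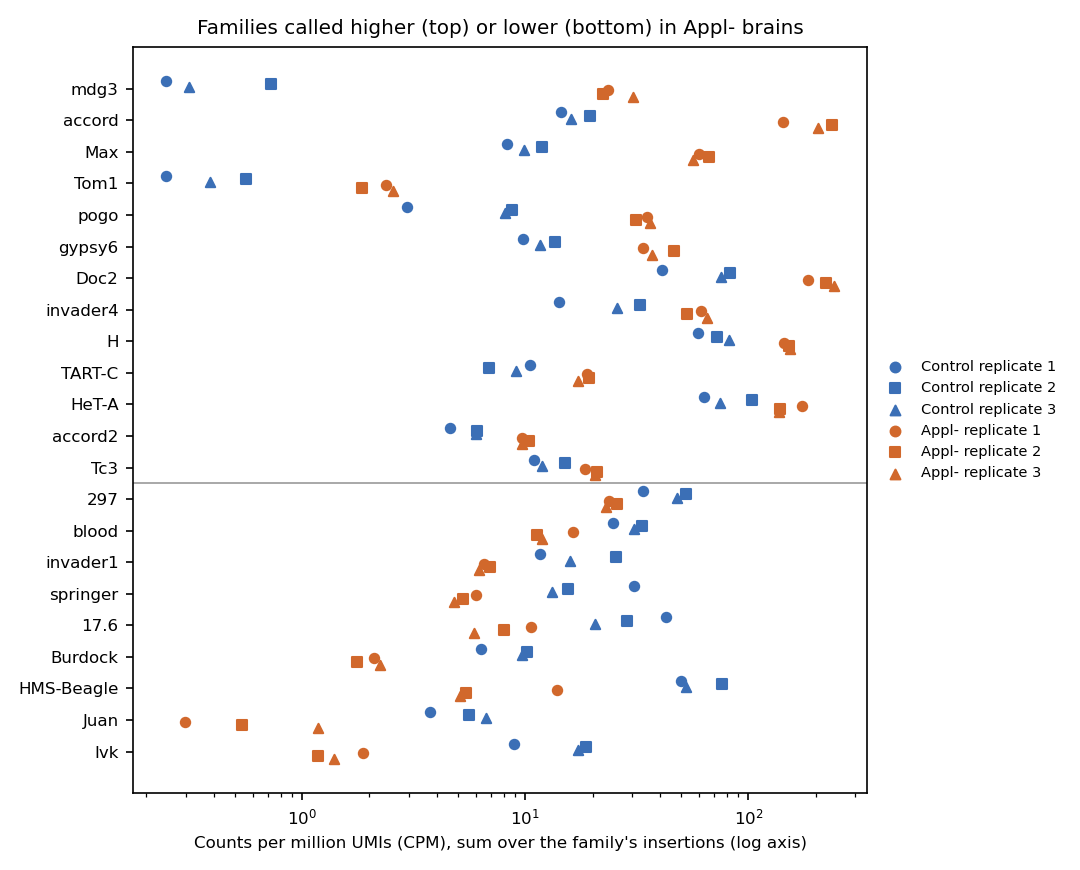
CPM summed over all insertions of a family, on a log axis, in each of 6 libraries (points) for the 13 families called higher in Appl-, above the line, and the 9 called lower, below it. The libraries of the genotypes are apart in every family, least widely in Tc3 (12.6 ± 2.17 and 20.0 ± 1.36) and most in mdg3 (0.425 ± 0.258 and 25.3 ± 4.32).

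In most called families 1 copy made up most of the change. The copy with the largest part, picked from these same data, made up more than 50% of the difference in CPM in 18 of the 22. This share was not counted for families not called. Another copy could also add much, as Ivk{}1098 did in Ivk (-5.04 of -13.0 CPM) and Doc2{}5179 in Doc2 (37.1 of 151). For accord, TART-C and Tom1 the leading copy's share was fixed, since 1 insertion held all UMIs of the family. H{}84 alone exceeded the difference of the H family (85.0 against 80.4 CPM), as invader4{}1669 did for invader4 (45.0 against 34.9). 17.6{}1213 made up 98.4% of the fall of 17.6, HMS-Beagle{}333 93.1%, Max{}4867 93.9% of the rise of Max and mdg3{}1683 96.7% of that of mdg3. The 4 exceptions were 297, HeT-A, Tc3 and blood.

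None of the 10 families with most UMIs was called without pairing. INE-1 was at 601 ± 166 and 679 ± 45.0 CPM in controls and Appl- (log2 fold change 0.18 ± 0.20 SE), roo at 402 ± 153 and 387 ± 92.1 (-0.05) and opus at 316 ± 111 and 114 ± 85.7 (-1.47, edgeR adjusted p = 0.165). With the replicate block jockey (-0.98, adjusted p = 0.0245) and rooA (0.59, adjusted p = 0.0119) passed. 1360 was at 0.31, mdg1 at -1.27, Doc at -0.17, HB at 0.14 and invader2 at -0.35. Copies within a family often moved apart, and of 56 families with a called insertion, 19 had calls in both directions. In 1360, 7 of 54 tested copies rose and 3 fell, while in mdg1 8 of 17 fell and 0 rose, and in copia 5 of 23 rose and 1 fell.

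Of the telomeric families HeT-A and TART-C rose, and TART-A did not pass the test. HeT-A was at 63.5, 104 and 74.6 CPM in controls and 174, 138 and 137 in Appl- (log2 fold change 0.89 ± 0.19 SE, edgeR adjusted p = 0.0439). TART-C, with 1 annotated insertion, was at 10.5, 6.88 and 9.12 in controls and 18.9, 19.3 and 17.2 in Appl- (1.06 ± 0.17, adjusted p = 0.0136), and TART-A had a value of 0.93 (adjusted p = 0.128). The HeT-A call was lost without any 1 of 4 libraries (highest adjusted p = 0.145), and the TART-C call without Appl- replicate 1 or 2 (highest 0.0730).

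All 13 HeT-A insertions were tested, and 8 rose and 1 fell. HeT-A{}4617 (chromosome 4) rose by 4.90 on the log2 scale, HeT-A{}6262 (chromosome 4) from 1.39 ± 0.179 to 27.8 ± 4.30 CPM, HeT-A{}4800 (X) from 0.530 ± 0.0761 to 7.498 ± 2.40 and HeT-A{}6255 (X) from 3 UMIs to 61, or 19.6 times as much (95% limits 6.39 and 97.6). HeT-A{}6268, HeT-A{}6270 and HeT-A{}6278 on chromosome 4 rose by 0.90, 1.10 and 1.24, and HeT-A{}4795 on X by 1.91. HeT-A{}6274 fell by 1.89, and its edgeR adjusted p of 0.0323 was 0.0574 with the replicate block. The calls of HeT-A{}6268, HeT-A{}6270, HeT-A{}6278 and HeT-A{}6274 were each lost without some 1 library (highest adjusted p = 0.161 by edgeR). These copies were named after their values were seen, and reads can be shared among near-identical copies.

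HeT-A{}6276, the most abundant of them with 5947 UMIs (chromosome 4, 1282540 to 1288109), differed between cell classes. Over all cells it was at 23.4, 52.0 and 26.9 CPM in controls and 34.5, 36.2 and 33.6 in Appl- (log2 fold change 0.03, edgeR adjusted p = 0.969). In neuron-like cells it was at 15.9, 17.3 and 21.99 in controls and 29.7, 32.7 and 33.2 in Appl- (0.81, adjusted p = 0.00648). The same insertion was thus apart between genotypes in neuron-like cells and overlapping over all cells, and the difference between classes was not tested.

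The photoreceptor-like cluster, of 150 cells, held HeT-A{}6276 at 655, 1728 and 1422 CPM in controls, against 0, 249 and 0 in Appl-, where it had 8, 33 and 8 cells. The glia-like cluster, of 317 cells, held it at 75.0, 416 and 29.6 in controls and 529.5, 197.3 and 123.3 in Appl-. Few cells carried these UMIs. In the photoreceptor-like cluster 20 of 150 cells (13.3%) had a UMI, 1 cell held 259 of the 519 UMIs and the top 5 cells held 89.6%. In glia-like cells 55 of 317 (17.4%) had a UMI and the top 5 held 44.0%, while among 24179 neuron-like cells 1713 (7.08%) had a UMI and the top 5 held 2.25%.

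To describe other insertions by cell type, cells were clustered on genes alone, without insertion rows, into 42 clusters, of which 38 were neuron-like. Levels by cell class are a description, since the classes came from the same cells. Insertion rows took 0.479% of UMIs in neuron-like cells (0.348% to 0.594% over libraries), 0.513% in glia-like cells (0.331% to 0.682%), 0.519% in photoreceptor-like cells (0.358% to 0.754%), 0.304% in hemocyte-like cells (0.212% to 0.453%) and 0.230% in fat body-like cells, 109 of whose 116 cells came from control replicates 1 and 3. All of these ranges overlapped. Within each library, however, the hemocyte-like share was below the neuron-like share, and so was the fat body-like share where such cells were present. The glia-like and photoreceptor-like shares lay above the neuron-like share in some libraries and below it in others.

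Most abundant insertions were spread widely over cells. For 79 insertions with at least 1000 UMIs in kept cells, the median ratio of the highest cluster to the median cluster, over the 37 clusters with at least 100 cells, was 1.88, and it exceeded 3 for 12 of them. Of those 12, HeT-A{}6276 had the largest ratio (52.1). INE-1{}3324 was highest in neuron-like cluster 14 (68.5 against a median cluster of 2.15 CPM) and INE-1{}3345 in neuron-like cluster 28 (67.4 against 2.499), each above its all-cell level in all 6 libraries. Cluster 28 was raised in 9 listed markers of Kenyon cells, as many as cluster 7, which was named Kenyon-like. It did not get that name because none of those markers was among its leading genes.

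opus{}865 was highest in cluster 10, whose cells resembled the motion-sensing T4/T5 neurons of the optic lobe, at 206, 667 and 687 CPM in controls and 0, 0 and 3.68 in Appl-. There 328 of 651 control cells (50.4%) and 1 of 602 Appl- cells had a UMI. Over neuron-like cells it was at 50.2, 126 and 141 in controls, and in the glia-like cluster at 33.3, 18.9 and 37.0. The LTR copy 17.6{}1213 had another pattern, with 133, 195 and 88.7 in glia-like control cells and 30.8, 14.4 and 13.2 in neuron-like control cells, and 0 UMIs in glia-like Appl- cells. 35 of 183 glia-like control cells (19.1%) had a UMI of it, against 5.598% of neuron-like control cells. Depth per cell was not matched between classes.

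H{}84 varied less between clusters than opus{}865, with a ratio of highest to median cluster of 2.41 against 6.60. The median ratio over abundant insertions was 1.88. In Appl- H{}84 was at 84.3, 84.9 and 81.7 CPM in neuron-like cells, 99.3, 74.0 and 77.1 in glia-like cells and 57.7, 14.8 and 53.0 in hemocyte-like cells. Dm88{}1659, an LTR copy on 3R between genes, was high in cluster 41, of 163 neuron-like cells, at 69.7, 21.7 and 123.05 in controls and 109, 148 and 280 in Appl-. It reached 78.7 in the Kenyon-like cluster 7 against 42.9 in all neuron-like cells. Cluster 41 was also named T4/T5-like, on 3 of the listed markers against 6 in cluster 10. Over all cells Dm88{}1659 had 40.8, 18.02 and 22.4 in controls and 86.2, 44.7 and 50.05 in Appl- (log2 fold change 1.15, edgeR adjusted p = 0.113). It passed only with the replicate block (0.00152), which was inferred from these same libraries.

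**Figure D5:**
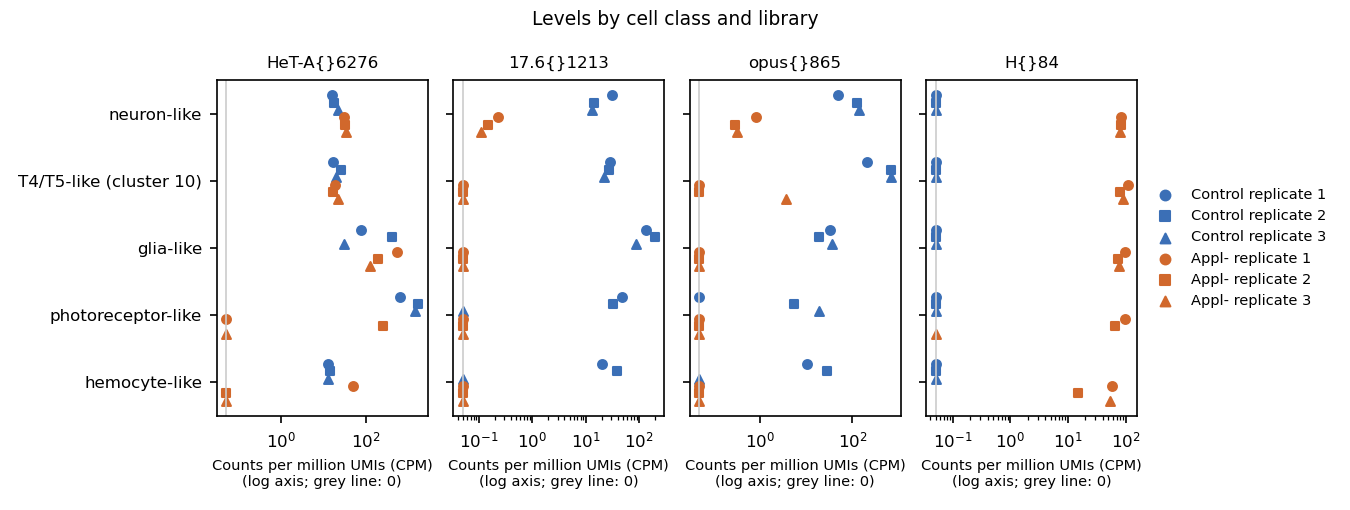
CPM (log axes; points on the grey line are 0) of 4 insertions by cell class and library, blue for controls and orange for Appl-. HeT-A{}6276 is highest in photoreceptor-like control cells (655 to 1728), 17.6{}1213 in glia-like control cells (88.7 to 195) and opus{}865 in T4/T5-like control cells (206 to 687), while H{}84 is at 0 in controls in every class.

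Over neuron-like cells alone, 784 of the insertions were tested and 78 were higher and 72 lower in Appl- (19.1%), against 7.43% of all features (3.98% higher and 3.45% lower). Among those that reached the filter's level in both genotypes, 79 of 698 insertions (11.3%) and 494 of 8816 features (5.6%) were called. Without control replicate 1 the counts were 94 and 156, without control replicate 3 they were 61 and 46, and without Appl- replicate 2 they were 54 and 35. Neuron-like cells were 24179 of the 25189 kept cells, so these counts share most of their data with those over all cells. In the glia-like cluster only 13 insertions passed the filter, and 4 were higher (accord{}818, H{}84, HeT-A{}6262 and Stalker2{}1001) and 3 lower (17.6{}1213, mdg1{}CG42335[iso-1] and mdg1{}1442), where 1.32% of 2505 features were called (0.599% higher and 0.719% lower). All 7 reached the filter's level in 1 genotype only and so had to differ to be tested, and the 6 that reached it in both were not called, so nothing is read from this count. In barcodes over the mitochondrial limit, which are other droplets of the same libraries, 525 insertions were tested and 46 were higher and 31 lower, against 4.11% of all features (2.26% higher and 1.86% lower). At the filter's level in both genotypes, 29 of 461 insertions (6.29%) and 201 of 8263 features (2.43%) were called. Of the 144 insertions called in kept cells, 105 were tested there, and all 105 had the same sign.

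Genes of the pathways that silence transposons were counted from a list of 50, of which 49 were found in the files and 34 were tested. In Appl-, 4 were higher and 0 lower without pairing, against 3.76% of all features higher and 3.7% lower, and the median log2 fold change was 0.16. Dcr-2, which cuts double-stranded RNA into small interfering RNAs, was at 13.7, 14.3 and 12.0 CPM in controls and 38.4, 46.8 and 42.0 in Appl- (log2 fold change 1.67 ± 0.12 SE, edgeR adjusted p = 0.000292). tapas, a Tudor domain gene of the piRNA pathway, was at 116 ± 5.27 and 201 ± 15.1 (0.79 ± 0.09, adjusted p = 0.00247). Both calls held without each library in turn.

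The piRNA pathway genes squ (0.90, edgeR adjusted p = 0.0493) and mael (1.48, adjusted p = 0.0396) had fewer than 5 CPM in every library. They missed the threshold with the replicate block (0.0648 and 0.0606) and without any 1 of several libraries (highest 0.184 and 0.156). Other listed genes had an edgeR adjusted p under 0.05 only with the block, which was inferred from these same libraries. Of these, tud fell from 139 ± 14.3 to 102 ± 10.3 CPM (unpaired log2 fold change -0.45, adjusted p = 0.0227 with the block and 0.0590 without). The genes wde (0.51), G9a (0.38) and del (0.65) were higher, with adjusted p = 0.0214, 0.0151 and 0.0422 with the block. AGO2, the partner of Dcr-2, was at 91.7 ± 2.86 in controls and 95.1 ± 5.08 in Appl- (log2 fold change 0.05), r2d2 at -0.00 and loqs at -0.04. The PIWI gene aub was at 0.986 ± 0.225 and 0.906 ± 0.246, and piwi was not tested with 45 UMIs in all. Of the 50, 9 had fewer than 10 UMIs, counting nbr, which was not in the files and so was not measured. The listed genes zuc and moon had 0, while others had more, such as vas with 41 and del with 630.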

How the data were processed

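Per the file headers the tables came from Cell Ranger 6.0.0, and the authors deposited whole-number counts per barcode for 22064 features (16493 genes, 5416 insertions and 155 other rows) without normalization. The genome build and whether counting used strand are not given in the sources used here. Cell Ranger counts only reads assigned to a single feature, so reads shared by near-identical or overlapping copies are missing or uncertain. Copies absent from the reference have no row of their own. Whether their reads were lost or counted in the row of a similar annotated copy was not examined. A row's UMIs therefore need not all come from the annotated position. Of the 5416 identifiers, 5414 matched Ensembl release 115 (BDGP6.54), which gave family names, positions and host genes. Classes were assigned by family name.

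Kept cells had 200 genes or more and no more than 10% mitochondrial UMIs, and doublets were not removed. Clustering used scanpy 1.11.5 (2000 variable genes, 30 components, 20 neighbours, Leiden resolution 1 with igraph 0.11.9) on genes alone, with names from marker lists. UMIs were summed per library, since cells are not replicates, and tested over all features by edgeR 4.0.16 under R 4.3.3 (quasi-likelihood test, TMM factors 0.973 to 1.03, filterByExpr, Benjamini-Hochberg adjustment), which was tested on simulated data. CPM values are scaled by these factors except in cell classes and barcodes over the limit. Floors and intervals cover counting error only. If replicates are not separate cultures, p-values measure technical spread. Same-numbered libraries of the genotypes correlated in their deviations from group means at 0.24, 0.19 and 0.39 over all features, all above 0.1. The replicate number was therefore used as a block in an alternative test, and the main test was unpaired. The labels do not state a pairing, and it was inferred from these same data. Over the insertions alone the correlations were 0.22, -0.00167 and 0.54, so pair 2 was not seen there. Control replicate 2 correlated at 0.137 with Appl- replicate 1. Within a genotype libraries differed beyond counting noise (chi-square of 10.3 or more per feature), so none was counted as a duplicate.

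The insertions and lists were chosen with earlier results of these data known. Named were the 10 insertions with most UMIs, the 8 largest called rises and 8 largest called falls without overlap, the leading copy of the 8 largest families, 2 on each side of the limit, the 10 largest and all called families, host genes and listed silencing genes. Others were chosen after values were seen. Alternatives were other cell limits, removal of the 5% of cells with most UMIs, other normalization and DESeq2 1.42.0, no filter, the replicate block, member-only family sums, no fold threshold and leaving out each library. Testing only barcodes over the limit was added after seeing the data.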

Additional observations from a re-analysis of the deposited data

Results flagged for a closer look

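Outside the insertions described, 155 rows named as transposable elements, without an insertion identifier or annotation, held 285135 UMIs in barcodes with at least 200 genes. In kept cells they took 0.129%, 0.167% and 0.0937% of UMIs in control replicates 1, 2 and 3 and 0.186%, 0.177% and 0.164% in Appl-.

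Barcodes over the mitochondrial limit, which the main comparison left out, held 367246 UMIs of insertion rows. These rows took 0.465%, 0.787% and 0.601% of their UMIs in controls and 0.687%, 0.704% and 0.684% in Appl-, a larger share than in kept cells in each of the 6 libraries. Single outlying libraries were not looked for, since each group has 3.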

How the results depend on the processing

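The counts of insertions and families called stayed within 1.5 times under other cell limits, removal of the 5% of cells with most UMIs, DESeq2 size factors, DESeq2's own test (88 higher and 86 lower insertions), no filter on low counts (80 and 76), no fold threshold (75 and 69) and the replicate block (79 and 74 insertions, 19 and 12 families, 92 and 83 insertions over neuron-like cells, with 11.2% of all features called). In barcodes over the mitochondrial limit alone, 46 insertions were higher and 31 lower, of fewer tested. Leaving out each library in turn gave 38 to 83 insertions higher and 27 to 133 lower, 5 to 15 families higher and 2 to 23 lower, and 54 to 94 insertions higher and 35 to 156 lower over neuron-like cells. The difference in the share of insertion UMIs ran from -0.0382 to 0.0864 percentage points. No named insertion or family changed direction in a called comparison under the alternatives. Of the 144 insertion calls, 132 held with the replicate block. Counts of few UMIs limit most insertions, of which 549 held 200 UMIs or fewer, and the 325 untested ones say nothing of genotype.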
